A study of Canis lupus familiaris with 4 samples.

Results

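*TXNIP*, its relatives *ARRDC2*, *ARRDC3* and *ARRDC4*, and the transcription factor pair *MLXIP* and *MLX* were followed across the 4 conditions of a canine kidney cell experiment. The 6 genes were taken by symbol, out of 15115 genes that had at least 1 probe set carrying a single gene symbol. The group was chosen by the measured values of *TXNIP* on these same arrays, low in control hypoxia and higher in HIF2α-KD hypoxia, and by the function of the other genes, so their values are given as a description and carry no test. Together they had 11 probe sets, 3 each for *MLXIP* and *MLX*, 2 for *TXNIP* and 1 for each of the other 3 genes.

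MDCK strain II cells, an epithelial line from dog kidney, all spent 24 h in normoxia and then another 24 h in either normoxia (16% O2) or hypoxia (1% O2). Control cells, whose genotype is labelled wild type and which carry an empty shRNA cassette according to the study's methods, were compared with cells in which HIF2α (*EPAS1* gene) was knocked down by a retroviral shRNA (HIF2α-KD). Both were infected lines, and the knockdown line named for the normoxic arrays carries 1 of 3 shRNA constructs. Each of the 4 combinations of line and oxygen was measured on 1 Affymetrix array, so no value has a replicate error, and any difference below can hold the difference between 2 dishes.

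TXNIP is an α-arrestin, an adaptor protein that promotes the removal of glucose transporters from the cell surface and also binds thioredoxin. Its gene is a known target of MondoA, the product of *MLXIP*, which works as a dimer with MLX and is drawn to DNA when glucose 6-phosphate accumulates. *ARRDC4* is the close relative with the same kind of control, whereas ARRDC3 is best known as an adaptor that brings NEDD4-family ubiquitin ligases to receptors at the membrane.

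Array medians lay between 28.21 and 29.1 intensity units, and pairwise correlations of log2 intensity between arrays were 0.975 to 0.990. Differences are given as log2(intensity + 16), on which scale 1 stands for 2-fold, and they understate the change of dim probe sets. After a filter on dim probe sets (highest of the 4 intensities at or above 28.75), 9749 genes remained, each represented by its brightest probe set, and all 6 genes were among them. The number of arrays limits the precision. As a check of the labels, *EPAS1* gave 44.6 in control and 47.9 in HIF2α-KD cells in normoxia, and 116 in control and 32.6 in HIF2α-KD cells in hypoxia. It was lower on the hypoxic HIF2α-KD array by a log2 difference of -1.45, but not on the normoxic one (0.08), so the latter is called the array labelled HIF2α-KD. Every value given for HIF2α-KD cells in normoxia, and every oxygen difference in HIF2α-KD cells, rests on that label. This check used 1 *EPAS1* probe set. The other read 6.39 or below, under the 95th percentile of the spike-in reporter probe sets on every array. By RT-qPCR, the study reported reduced HIF2α mRNA in its knockdown lines. Of 6 renal epithelial markers, 5 to 6 were above the 95th percentile of the spike-in reporter probe sets on each array, with summed intensities of 26655 to 28595 that were set mainly by *KRT18* and *EPCAM*. In the same list *CDH1*, which encodes E-cadherin, gave 15.4 in control normoxia, 18.9 in the normoxic array labelled HIF2α-KD, 119 in control hypoxia and 81.4 in HIF2α-KD hypoxia, log2 differences for oxygen of 2.10 and 1.48. Both normoxic readings of *CDH1* were under the 95th percentile of the reporters, so its normoxic level and the size of these differences are not settled. Fibroblast markers, of which 1 to 2 of 6 were above that level, summed to 76.9 in control normoxia, 90.9 in the normoxic array labelled HIF2α-KD, 196 in control hypoxia and 127 in HIF2α-KD hypoxia. That sum moved with 1 gene, *PDGFRA*, at 31.5, 33.8, 145 and 75.7, while *DCN* stayed at 8.30 or below. All 3 leukocyte markers were above the reporter level on each array, with sums of 103 to 119, and 1 of 4 endothelial markers was, with sums of 116 to 143. The part of these markers in the values below was not tested.

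*TXNIP* was the gene of the 6 that moved most. Its brightest probe set gave 1611 in control normoxia, 1730 in the normoxic array labelled HIF2α-KD, 705 in control hypoxia and 1502 in HIF2α-KD hypoxia. The control hypoxic array therefore stood apart, at 0.438 times the control normoxic intensity, while the other 3 lay close together. The second, dimmer probe set gave 146, 120, 67.3 and 128 in the same order, and here too control hypoxia was the low array. The order of the upper 3 arrays was not the same in the probe sets, since the normoxic array labelled HIF2α-KD was the highest of them in the brighter and the lowest in the dimmer. That order is therefore not settled by these data. Because dishes were measured whole, fewer cells with the transcript and less transcript per cell cannot be told apart.

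**Figure D1:**
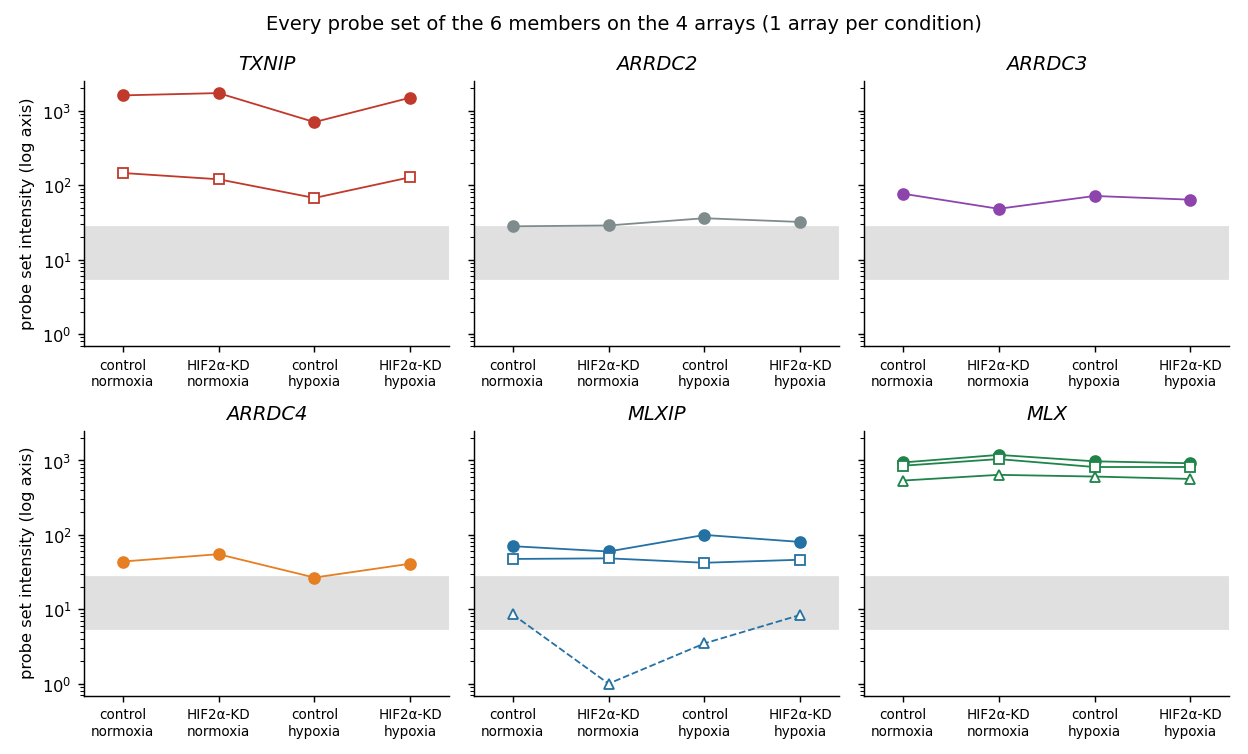
Intensity (log axis, array units) of every probe set of the 6 genes on each of the 4 arrays, with lines that join the points of 1 probe set and mark no time course. *TXNIP* reads 705 in control hypoxia and 1502 in HIF2α-KD hypoxia in its brighter probe set, and the same dip is seen in the dimmer one.

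In control cells, *TXNIP* was lower in hypoxia than in normoxia by a log2 difference of -1.17 in the brighter and -0.96 in the dimmer probe set. Counting differences of 2-fold or more, 1 of the 6 genes was lower and 0 were higher. Among all 9749 genes, 0.544% were at least 2-fold lower and 3.05% at least 2-fold higher, and *TXNIP* ranked 21 from the lowest of the 53 lower genes. These values entered into the choice of the gene, and nothing is read from the count. The genes on either side of that limit were *CNGA1* at -1.01 and *CA13* at -0.999.

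In HIF2α-KD cells, the hypoxic array was compared with the normoxic array labelled HIF2α-KD. *TXNIP* differed by -0.20 in the brighter probe set and by 0.08 in the dimmer, so even the sign was not shared. None of the 6 genes was 2-fold different (0 of 6), against 1.38% of all genes higher and 0.421% lower. For *TXNIP*, 21.0% of genes had a lower value. The oxygen comparisons in control and in HIF2α-KD cells share no array. Of the 53 genes at least 2-fold lower in hypoxia in control cells, 47 were also below 0 in HIF2α-KD cells and 11 were again at least 2-fold lower. Their median was -1.09 in control and -0.60 in HIF2α-KD cells. Over all genes, 53.2% were above 0 in HIF2α-KD cells. Within these 53, *TXNIP* took rank 39 from the lowest in HIF2α-KD cells, and 11 genes lay closer to 0 than it did. The 53 genes, *TXNIP* among them, were picked by their low control values. Smaller differences in another pair of arrays therefore follow in part from that choice, and nothing is read from them.

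Between the lines, the readings of *TXNIP* were close in normoxia and apart in hypoxia. In normoxia, the array labelled HIF2α-KD differed from control by 0.10 in the brighter probe set and -0.25 in the dimmer. In hypoxia, HIF2α-KD exceeded control by 1.07 in the brighter probe set, an intensity ratio of 2.13, and by 0.79 in the dimmer, a ratio of 1.90. In normoxia 0 of the 6 genes were 2-fold different, against 0.615% of all genes higher and 0.544% lower. In hypoxia 1 of 6 was higher and 0 lower, against 0.103% and 0.882% of all genes, and *TXNIP* was 7th from the highest of 10 genes. The limit lay between *ARPP21* at 1.02 and *PRR15* at 0.998. The hypoxic comparison of the lines uses the same control hypoxic array as the comparison of oxygen in control cells, so both large values of *TXNIP* rest on that 1 reading. The difference of the 2 oxygen differences, HIF2α-KD minus control, was 0.97 in the brighter and 1.04 in the dimmer probe set, and with 4 arrays it cannot be tested.

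**Figure D2:**
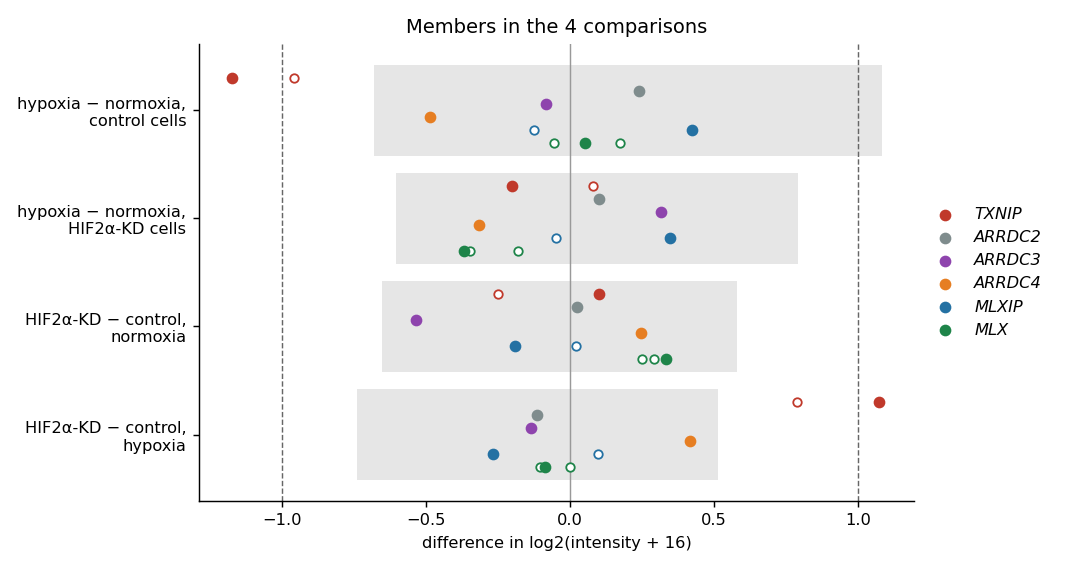
Log2 differences of each kept probe set of the 6 genes in the 4 comparisons, filled for the brightest and open for the others, with dashed lines at 2-fold and grey bands for the central 95% of all 9749 genes. *TXNIP* alone reaches 2-fold, at -1.17 for hypoxia in control cells and 1.07 for HIF2α-KD against control in hypoxia, in its brighter probe set only.

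Among the relatives, *ARRDC4* had the profile nearest to that of *TXNIP*, at a low intensity. Its single probe set gave 43.8 in control normoxia, 55.0 in the normoxic array labelled HIF2α-KD, 26.7 in control hypoxia and 41.0 in HIF2α-KD hypoxia. Control hypoxia was again the lowest array, and there the reading was near the 95th percentile of the reporters on that array, 25.02. The log2 difference for hypoxia was -0.49 in control cells, with 7.41% of all genes lower, and -0.32 in HIF2α-KD cells. The control value ran from -0.69 with a pseudocount of 1 to -0.25 with one of 64, and the intensity ratio of hypoxia to normoxia was 0.609 in control cells, beside 0.438 for *TXNIP*. Against control, the normoxic array labelled HIF2α-KD stood at 0.25 and the hypoxic HIF2α-KD array at 0.42, the latter with 95.6% of all genes lower. Across the 4 arrays the correlation with *TXNIP* was 0.95, a description over 4 points with no test. By the Euclidean distance between log2 profiles centred on their own means, *ARRDC4* was rank 106 of 9748 genes from *TXNIP*, at 0.556. None of the differences of *ARRDC4* reached 2-fold. Its difference of the 2 oxygen differences, HIF2α-KD minus control, was 0.17, beside 0.97 for the brighter probe set of *TXNIP*.

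The profile of *ARRDC3* lay farther from that of *TXNIP*. Its intensities were 76.9 in control normoxia, 48.2 in the normoxic array labelled HIF2α-KD, 71.6 in control hypoxia and 63.9 in HIF2α-KD hypoxia, so the normoxic array labelled HIF2α-KD was the low one. That array lay -0.53 below control on the log2 scale, with 4.69% of all genes lower, whereas in hypoxia the lines differed by -0.13. The oxygen difference was -0.08 in control and 0.32 in HIF2α-KD cells, and the difference of the 2 was 0.40. *ARRDC2* was dim on every array, with 28.0, 28.8, 36.0 and 32.03 in the order control normoxia, labelled HIF2α-KD normoxia, control hypoxia and HIF2α-KD hypoxia. Its highest reading was in control hypoxia, where *TXNIP* and *ARRDC4* had their lowest. Its differences were 0.24 and 0.10 for oxygen in control and HIF2α-KD cells, and 0.02 and -0.11 for the lines in normoxia and hypoxia. Distances from the *TXNIP* profile were 1.20 for *ARRDC2* and 1.26 for *ARRDC3*, ranks 6378 and 6930, with correlations of -0.91 and -0.43 over the 4 arrays.

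The transcription factor genes showed no 2-fold difference in any comparison. *MLXIP*, which encodes MondoA, gave 70.5, 59.8, 99.9 and 80.4 in its brightest probe set, in the same order of arrays, with hypoxic readings above normoxic ones in both lines. The log2 difference for hypoxia was 0.42 in control and 0.35 in HIF2α-KD cells. Its second probe set gave 47.5, 48.4, 42.2 and 46.4, with corresponding differences of -0.12 and -0.05, so the direction rested on the probe set. The third probe set, at 8.54, 1.0, 3.48 and 8.41, stayed under the 95th percentile of the reporters on all 4 arrays and was left out.

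*MLX*, the dimer partner, was bright in all 3 probe sets. The brightest gave 940 in control normoxia, 1189 in the normoxic array labelled HIF2α-KD, 974 in control hypoxia and 918 in HIF2α-KD hypoxia. The other 2 gave 850, 1044, 817 and 817, and 537, 641, 608 and 565. In each, the normoxic array labelled HIF2α-KD was the highest, by 0.25 to 0.33 over control on the log2 scale. In hypoxia the lines differed by -0.10 to 0.00. The oxygen difference was -0.06 to 0.17 in control cells and -0.37 to -0.18 in HIF2α-KD cells. The distance of *MLX* from the *TXNIP* profile was 0.990 and that of *MLXIP* 1.45, ranks 3267 and 8337, both farther than *ARRDC4*, with correlations of 0.27 and -0.90.

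**Figure D3:**
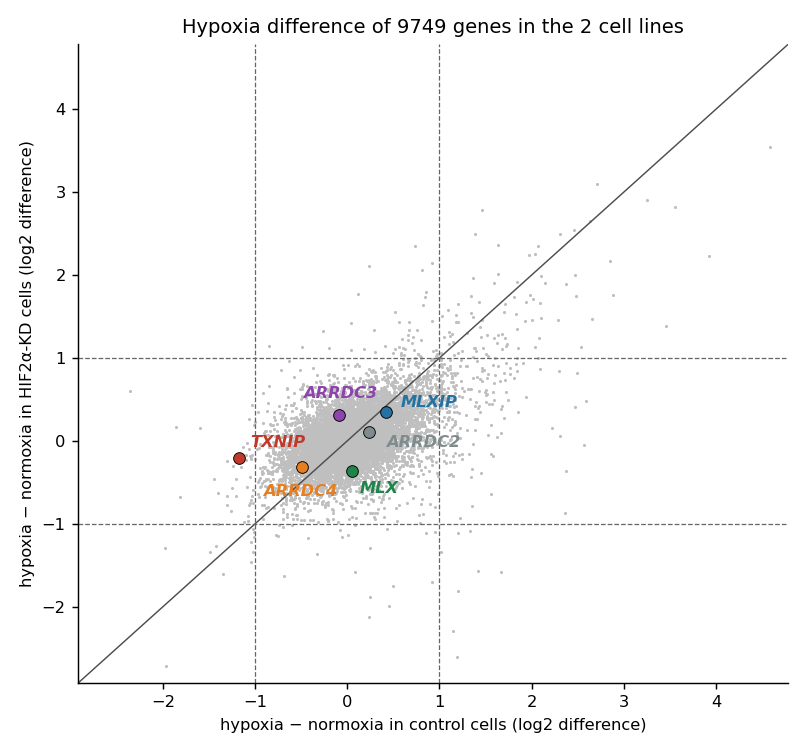
Log2 difference for hypoxia against normoxia in control cells (x axis) and in HIF2α-KD cells (y axis), for 9749 genes (grey) and the 6 named genes, with dashed lines at 2-fold and a diagonal of equal differences. *TXNIP* lies far left at -1.17 and near 0 on the y axis at -0.20, and the other 5 lie within the cloud.

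The genes around this circuit were described from 8 lists holding 77 genes, of which 59 passed the filter. In control cells, 17 of the 59 were at least 2-fold higher in hypoxia and 0 lower, beside 3.05% and 0.544% of all genes, with a median of 0.42 beside 0.03. In HIF2α-KD cells, 13 were higher and 2 lower, beside 1.38% and 0.421% of all genes, with a median of 0.30 beside 0.02. For the lines, 1 was higher and 3 lower in normoxia, beside 0.615% and 0.544% of all genes, and 0 higher and 3 lower in hypoxia, beside 0.103% and 0.882%. In hypoxia 12 of the 59 genes were above 0 in HIF2α-KD against control, beside 44.3% of all genes, with a median of -0.23 beside -0.04. The lists were chosen with results known, and nothing particular to them is read from these counts.

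Of the hypoxia markers, 8 of 9 kept genes were at least 2-fold higher in hypoxia in each line, beside 3.05% of all genes in control and 1.38% in HIF2α-KD cells. *ADM*, which encodes adrenomedullin, rose from 397 to 9897 in control cells and from 436 to 5268 in HIF2α-KD cells, log2 differences of 4.59 and 3.55. Their median was 2.71 in control and 2.24 in HIF2α-KD cells, while *TXNIP* moved the other way in control cells.

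For the genes of glucose entry, 1 of 8 was at least 2-fold higher in hypoxia in each line and 0 lower. Among all genes, 3.05% and 1.38% were higher in control and HIF2α-KD cells, and 0.544% and 0.421% lower. *GPI*, the isomerase that acts on glucose 6-phosphate, went from 1503 to 5319 in control cells and from 1397 to 4676 in HIF2α-KD cells, a difference of 1.81 and 1.73. *SLC2A1*, encoding the glucose transporter GLUT1 whose surface level TXNIP restrains, gave 6820 and 12220 in control normoxia and hypoxia, and 5857 and 9974 in HIF2α-KD cells. Its brightest probe set stayed under 2-fold, at 0.84 and 0.77, whereas its other 2 probe sets read 1.30 and 1.90 in control and 1.14 to 1.48 in HIF2α-KD cells. The hexokinases, which make glucose 6-phosphate, depended on the probe set as well. *HK1* differed by -0.33 in control and 0.15 in HIF2α-KD cells in its brightest probe set, but by 1.77 to 1.85 and 1.02 to 1.27 in its other 2. *HK2* differed by 0.53 and 0.18 in the brightest and by 1.42 and 1.42 in the other. Between the lines in hypoxia, 0 of the 8 genes were 2-fold different, beside 0.103% of all genes higher and 0.882% lower.

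Genes known to be induced by glucose through MondoA or its relative ChREBP, other than the arrestins, were above 0 for hypoxia in control cells in 9 of 10 cases, beside 53.2% of all genes. By their brightest probe sets, 4 of 10 were at least 2-fold higher in hypoxia in control cells and 0 lower. In HIF2α-KD cells these were 3 of 10 and 0, where 3.05% and 1.38% of all genes were 2-fold higher. Which genes reached 2-fold depended on the probe set. *PFKFB3*, a kinase that drives glycolysis, gave 896 in control normoxia, 1461 in the normoxic array labelled HIF2α-KD, 6706 in control hypoxia and 4980 in HIF2α-KD hypoxia, oxygen differences of 2.88 and 1.76. Its other 2 probe sets ran from 1.59 to 3.00 in control cells. In HIF2α-KD cells they ran from 0.41, under 2-fold, to 1.72. *FASN*, the fatty acid synthase, differed by 1.04 and 0.72 in its brightest probe set, but its other 3 ran from -0.13 to 1.04 in control and from -0.21 to 0.69 in HIF2α-KD cells. *SCD* read 0.28 and 0.85 in its brightest probe set, but 1.58 to 2.57 and 2.02 to 2.79 in its other 2. *ACLY* read 0.43 and 0.84 in its brightest, but 1.57 to 1.92 and 0.95 to 1.85 in its other 2. The fatty acid elongase gene *ELOVL6* differed by 1.21 and 1.65. *FGF21*, a hormone gene, gave 368, 53.8, 1041 and 465 in the same order, and differed from control by -2.46 on the normoxic array labelled HIF2α-KD and by -1.14 in HIF2α-KD hypoxia. Several of these genes are also known targets of the hypoxia response or of lipid regulators.

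The MYC and MAX network, in which MLX takes part, had 5 of 9 listed genes above the filter. *MXI1*, an antagonist of MYC, was the one with a 2-fold difference in its brightest probe set, 209 to 535 in control cells (1.29) and 190 to 371 in HIF2α-KD cells (0.91). In control cells, 3.05% of all genes were at least 2-fold higher in hypoxia. Another probe set of *MXI1* read 1.41 and the third 0.00 in control cells. *MYC* gave 654 and 1136 in control and 391 and 766 in HIF2α-KD cells in normoxia and hypoxia, differences of 0.78 and 0.94. *MLXIPL*, which encodes ChREBP, had no probe set above the filter, with a highest reading of 25.9, and no difference is given. Between the lines in hypoxia all 5 kept genes were below 0 in their brightest probe sets (44.3% of all genes were above 0), with a median of -0.56 beside -0.04 over all genes. The other 2 probe sets of *MXI1* ran from -0.65 to 0.04 there, so the sign was not shared. *MAX* read -0.14 in its brightest probe set and -1.17, past 2-fold, in its other kept one. The *MXD1* reading in HIF2α-KD hypoxia, 20.4, was under the 95th percentile of the reporters on that array, 24.24.

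Among the binding partner, redox and ubiquitin ligase genes, *TXN* itself, the thioredoxin bound by TXNIP, varied little. It gave 13649 in control normoxia, 16726 in the normoxic array labelled HIF2α-KD, 14493 in control hypoxia and 14954 in HIF2α-KD hypoxia, near the top of the array's range, and differed by 0.09 and -0.16 for oxygen. *TXNRD1*, the thioredoxin reductase, was lower in hypoxia in both lines, by -0.77 in control and -1.14 in HIF2α-KD cells in its brightest probe set. Its other 3 probe sets stayed under 2-fold, at -0.56 to -0.01 and -0.66 to -0.14. *DDIT4*, encoding the stress protein REDD1 that forms a complex with TXNIP, was higher in hypoxia in both lines, by 1.20 and 1.43. *NEDD4*, a ubiquitin ligase, gave 32.8, 115, 42.1 and 37.4 and so was high on the normoxic array labelled HIF2α-KD, by 1.42 against control and with an oxygen difference of -1.29. *ITCH*, the ligase best known for marking TXNIP for degradation, differed by 0.28 and 0.29 for oxygen and by -0.29 and -0.28 between the lines. In all, 1 of the 11 kept genes was at least 2-fold higher in hypoxia in control cells, beside 3.05% of all genes, and 1 was higher and 2 lower in HIF2α-KD cells, beside 1.38% and 0.421%.

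The kinases of energy and insulin signalling, among which AMPK and AKT act on TXNIP protein, had 1 of 8 genes at least 2-fold higher in hypoxia in control cells and 0 in the other comparisons. Over all genes, 3.05% were higher in hypoxia in control cells. In the other comparisons, 0.103% to 1.38% of all genes were higher and 0.421% to 0.882% lower. The 1 kinase gene was *AKT1*, with 6.52 and 18.2 in normoxia, under the 95th percentile of the reporters, and 80.0 and 46.1 in hypoxia, in control and HIF2α-KD cells. *PRKAA2*, a catalytic subunit of AMPK, differed by 0.68 and 0.76 for oxygen. Among the glucocorticoid-responsive genes, a class to which *TXNIP* is often counted, *DUSP1* gave 351, 503, 1114 and 519 in the order control normoxia, labelled HIF2α-KD normoxia, control hypoxia and HIF2α-KD hypoxia. It was thus high where *TXNIP* was low, with 1.62 and 0.04 for oxygen in control and HIF2α-KD cells and -1.08 for the lines in hypoxia, although its other 2 probe sets read -0.92 and 0.21 there. *TSC22D3*, encoding the leucine zipper protein GILZ, differed from control by -1.19 on the normoxic array labelled HIF2α-KD and by -0.76 in HIF2α-KD hypoxia, and its other probe set by -0.63 and -0.20. Of the 6 kept genes here, 3 were above 0 and 3 below for oxygen in control cells. The same split held for the lines in hypoxia. At 2-fold, 1 was higher in the former (3.05% of all genes) and 1 lower in the latter (0.882%). *SGK1* lay on the side of *TXNIP* in both, at -0.46 and 0.36. Its other probe sets read -0.61 to -0.45 and 0.21 to 0.54. *FKBP5* did so at -0.29 and 0.35, with its other probe set at -0.0004 and 0.32. The remaining arrestins moved little. *ARRDC5* gave -0.25 and -0.06 and *ARRB2* 0.23 and -0.12 for oxygen, 0 of the 2 reached 2-fold in any comparison, and *ARRDC1* was not analysed here.

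**Figure D4:**
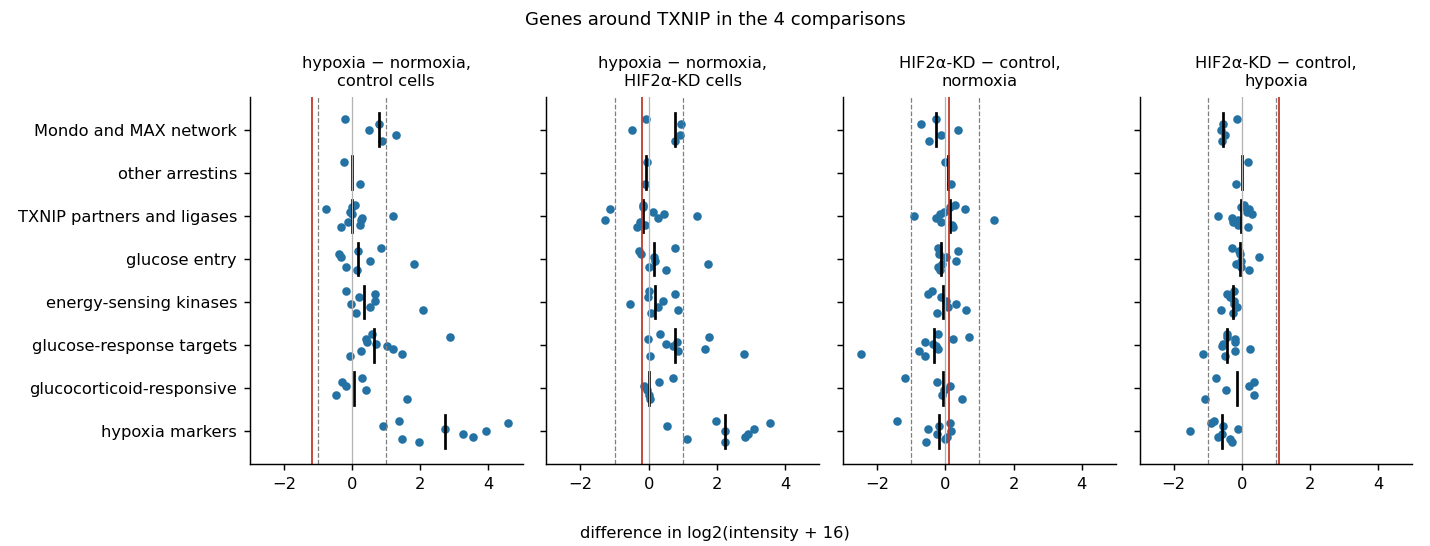
Log2 differences in the 4 comparisons for the kept genes of the 8 lists, 1 point per gene with the list's median as a black bar, *TXNIP* as a red line and 2-fold as dashed lines. The hypoxia markers lie highest for oxygen, with medians of 2.71 and 2.24, and *TXNIP* lies below every list median in control cells and above them in HIF2α-KD against control in hypoxia.

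The 8 genes with the profile nearest to *TXNIP* among 9748 were *RNF185*, *CFAP157*, *SLC16A14*, *FBP1*, *GFM1*, *NXPH1*, *SPSB2* and *SH3D19*, at distances of 0.290 to 0.351 and with correlations of 0.946 to 0.998 over the 4 arrays. *FBP1*, a gene of gluconeogenesis encoding fructose bisphosphatase, gave 255 in control normoxia, 264 in the normoxic array labelled HIF2α-KD, 137 in control hypoxia and 250 in HIF2α-KD hypoxia. It was lower in hypoxia by -0.82 in control and -0.08 in HIF2α-KD cells, and higher in HIF2α-KD than control hypoxia by 0.80. Its other 2 probe sets had the same directions, at -0.66 to -0.60 and 0.59 to 0.63. *GFM1*, a mitochondrial translation elongation factor gene, gave 1423, 1733, 608 and 1090, and its other probe sets differed less, by -0.60 to -0.34 for oxygen in control cells. *RNF185*, a ubiquitin ligase gene, gave 51.2, 43.1, 13.9 and 35.4, with the control hypoxia reading under the 95th percentile of the reporters, and its other probe set read 0.01 for oxygen in control cells. *SPSB2* gave 201, 191, 77.9 and 135, and its other probe set read -0.17 where the brighter read -1.21. *SH3D19* gave 80.3, 109, 43.6 and 98.0. The other 3 had at most 56.6 on any array, with control hypoxia readings of 8.70 to 13.9, also under the 95th percentile of the reporters. These genes share the 4 arrays with *TXNIP*, and with 4 points a close profile is a description only.

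**Figure D5:**
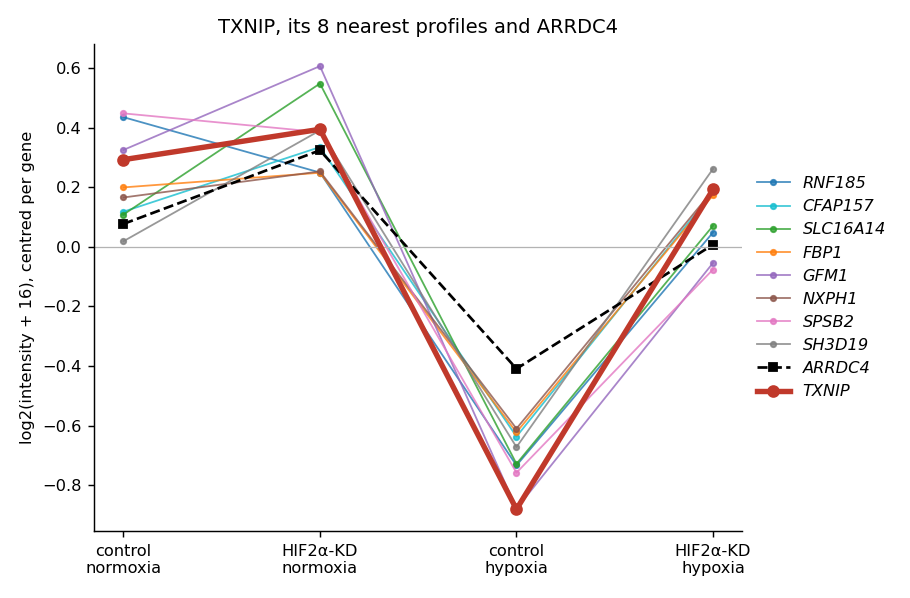
Log2 profiles centred on their own means for *TXNIP* and the 8 genes nearest to it, over the 4 arrays, with *ARRDC4* as a dashed line and joining lines that mark no time course. All dip in control hypoxia, and *FBP1* (distance 0.312) has the highest correlation with *TXNIP*, 0.998.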

How the data were processed

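Total RNA of 4 MDCK strain II samples was extracted with an RNeasy kit, labelled with biotin by a 3′ in vitro transcription kit from 100 ng and hybridised to Affymetrix canine arrays. The authors deposited 1 table of linear intensity values for 42924 probe sets. How these intensity values were summarised, background-corrected and scaled is not given in the sources used here, although the array medians are nearly equal. Probe sets took their genes from the platform annotation, by which 29254 had 1 symbol, 439 several and 13167 none, and 64 were reporters. Of those with 1 symbol, 27680 matched the RefSeq gene table by Entrez ID, with 0 differing symbols, and 5 of the 6 members matched. *ARRDC4* was the member without a match, and its symbol was kept as the platform annotation gives it.

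Differences of log2(intensity + 16) were computed between arrays with Python 3.11.15, numpy 2.4.6 and pandas 2.3.3. Probe sets whose highest intensity was under the table's median (28.75) were left out, and the kept probe set with the highest mean stood for its gene. Genes were counted at 2-fold. With 1 array per condition no test was run and no p-value is given. Alternatives were quantile, cyclic loess (limma 3.58.1 in R 4.3.3) and median scaling, pseudocounts of 1 and 64, no filter or one at the 75th percentile (175), the mean of kept probe sets or the second brightest, and a 1.5-fold limit for counts. A value was called moved when it changed by over 1.5-fold or crossed 2-fold. The calculations were tested on simulated data.

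The members and gene lists were chosen with earlier results of these data known. Named were the members with every probe set, *EPAS1*, *TXN*, *MLXIPL*, *ARRDC1* and *SLC2A1*, the 8 profiles nearest *TXNIP*, and from each list genes among the 4 with the largest difference in a comparison. *HK1*, *HK2* and *ITCH* were named for their role in the pathway where they fell outside that rule, and the markers *CDH1*, *PDGFRA*, *KRT18*, *EPCAM* and *DCN* were named after their values were seen. No genome coordinates or sequences were used.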

Additional observations from a re-analysis of the deposited data

Results flagged for a closer look

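Signs were counted in 39 genes whose differences the text describes. This leaves out genes that only mark a limit, and *SGK1*, *FKBP5*, *SCD*, *ACLY* and *MAX*. Of the 39, 7 had opposite signs for hypoxia against normoxia in control and HIF2α-KD cells, and 16 had opposite signs for HIF2α-KD against control in normoxia and hypoxia. Over all 9749 genes, 34.1% and 44.7% did so. Each group is a single array, the normoxic array labelled HIF2α-KD showed no lower *EPAS1*, and no difference between the settings was tested.

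For oxygen, in control and then in HIF2α-KD cells, *ARRDC3* differed by -0.0847 and 0.316 on the log2 scale and *MLX* by 0.0516 and -0.368, where the sign of the control value of *MLX* turned with quantile normalization and with its second probe set. *EPAS1* differed by 1.126 and -0.396, and *NEDD4* by 0.252 and -1.29. *HK1* differed by -0.327 and 0.147, *TXN* by 0.0865 and -0.161, and *ARRB2* by 0.226 and -0.116. The other 2 probe sets of *HK1* were higher in hypoxia in both lines, at 1.77 to 1.85 and 1.02 to 1.27. Outside the count, *SGK1* differed by -0.463 and 0.0025 and *FKBP5* by -0.291 and 0.295.

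For the lines, in normoxia and then in hypoxia, *MLX* differed by 0.335 and -0.0849, the second of which also turned sign under those alternatives. *ARRDC2* differed by 0.0244 and -0.114, *ARRDC5* by -0.009 and 0.179, and *ARRB2* by 0.176 and -0.167. *EPAS1* differed by 0.0769 and -1.45 and *ADM* by 0.131 and -0.908. *PFKFB3* differed by 0.696 and -0.428, *HK2* by 0.324 and -0.0237, and *ELOVL6* by -0.219 and 0.225. The other probe set of *HK2* had the same sign in both, at -0.129 and -0.125. *NEDD4* differed by 1.42 and -0.121, *DUSP1* by 0.499 and -1.08, and *AKT1* by 0.602 and -0.628, where the normoxic readings of *AKT1* were under the 95th percentile of the reporters. *RNF185* differed by -0.186 and 0.783 and *SPSB2* by -0.063 and 0.683. Their other probe sets read 0.01 and -0.04 for the lines in hypoxia. Outside the count, *SGK1* differed by -0.101 and 0.365 and *FKBP5* by -0.232 and 0.355. The marker genes *CDH1* and *PDGFRA* differed by 0.149 and -0.472 and by 0.0667 and -0.815, where the normoxic readings of *CDH1* were under the 95th percentile of the reporters.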

How the results depend on the processing

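No paired analysis was possible because each condition had 1 array and the labels give no replicate numbers. Over 9 alternatives, *TXNIP* ranged from -1.25 to -0.96 for hypoxia in control cells, from -0.22 to 0.08 for hypoxia in HIF2α-KD cells, from -0.25 to 0.15 for the lines in normoxia and from 0.79 to 1.19 for the lines in hypoxia. With the second brightest, the control value was -0.96 and the members at 2-fold numbered 0 of 6 there, the lines in hypoxia differed by 0.79 with 0 members at 2-fold, and the difference of the differences was 1.04. With the mean of kept probe sets, the lines in hypoxia differed by 0.93 with 0 members at 2-fold, and the difference of the differences was 1.01. With quantile normalization the latter was 1.07. The second probe set also turned the sign of *TXNIP* for hypoxia in HIF2α-KD cells and for the lines in normoxia, and the signs of *MLXIP*. *MLX* for hypoxia in control cells turned from 0.05 to -0.04 with quantile normalization and -0.06 with the second probe set, and for the lines in hypoxia from -0.08 to 0.02 and 0.00. The other 5 members stayed under 2-fold in all 164 recomputed values.

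The 8 nearest profiles were recomputed under alternatives chosen after seeing the data. They shared 1 of 8 genes with a pseudocount of 1, 3 with a pseudocount of 64 and 3 with the filter at the 75th percentile, so this set depends on the handling of dim values. Genes at least 2-fold different in either direction numbered 350 and 176 for hypoxia in control and HIF2α-KD cells and 113 and 96 for the lines in normoxia and hypoxia. They numbered 595, 334, 235 and 227 with a pseudocount of 1, 193, 98, 65 and 37 with 64, and 96 became 55 with the filter at the 75th percentile. The 10 genes higher in HIF2α-KD hypoxia became 74 with a pseudocount of 1. Of 39 calls in the wider lists, 33 to 39 remained at 2-fold, and *DUSP1* for the lines in hypoxia turned to 0.21 with its second probe set. Scaling moved the median of all genes by at most 0.07. Dim genes such as *ARRDC2* and *ARRDC4* are limited by their signal over background.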
